A study of Mus musculus with 24 samples.

Results

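The 10 genes described here make, bind, sense and remove retinoic acid in the embryonic mouse jaw: Aldh1a1, Aldh1a2 and Aldh1a3 for synthesis, Cyp26a1 and Cyp26b1 for breakdown, Crabp1 and Crabp2 for binding in the cytoplasm, and the receptor genes Rara, Rarb and Rarg. They were taken by symbol from the annotation of the arrays, where 10 of the 18193 annotated genes carried these symbols on 13 probe sets, and each gene was read from the probe set that was brightest on average. All 10 passed the filter on low values and are among the 13942 genes tested. RNA from embryonic day 14.5 embryos on the C57B6 background was hybridised to 24 one-colour arrays, 3 in each of 8 groups: Alk5 mutants and control littermates, each with the distal and proximal ends of the mandible (lower jaw) and of the maxilla (upper jaw). Alk5, also called Tgfbr1, encodes the type I receptor for TGF-beta, and floxed Alk5 alleles were deleted in mutants with Wnt1cre, which is active in the neural crest lineage and so leaves most epithelium, endothelium and skeletal muscle fibres with an intact gene. Mutants came from crosses of Wnt1cre;Alk5fl/+ with Alk5fl/fl mice and were picked by cleft palate and calvarial defects. The alleles of each control were not given, but every embryo of this cross inherits a floxed allele from its Alk5fl/fl parent.

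Retinoic acid is made from vitamin A by oxidation of retinol to retinaldehyde and of retinaldehyde to the acid, the last step being carried out by the retinaldehyde dehydrogenases of the Aldh1a family. It diffuses into nearby cells, where CRABP proteins bind it and CYP26 enzymes of the cytochrome P450 family oxidise it, so that source and sink set where it acts. In the nucleus it binds RAR proteins, which pair with RXR on repeated half-sites in DNA, and in the face it is known for its part in the outgrowth of the frontonasal and maxillary processes and in closure of the palate.

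A pair of promoter stretches is shown because they hold the kind of repeat that RAR and RXR bind and belong to the receptor gene Rarb and the breakdown gene Cyp26a1, whose expression is known to be raised by retinoic acid itself. RefSeq windows reaching from 250 bases before to 50 bases after a start were given for 8 of the 10 genes (13 windows, build GRCm38.p6). The half-sites searched on both strands were AGGTCA (the consensus), AGTTCA (as in both genes shown), GGTTCA (as in Rarb) and GGGTCA (a further variant), taken as direct repeats with 1, 2 or 5 bases between them, and matches of different spacing could overlap. The spacing of 5 was found in 32 of 32851 windows (0.0974%). The windows of Rarb and Cyp26a1 are 2 of them, which the choice of half-sites fixed, since it took in those of both genes. The spacings of 1 and 2 were found in 73 and 88 windows (0.222% and 0.268%) and in 0 of the 13 windows of these genes. A match is a string of letters and not a tested site. Both stretches are the 100 bases before the start, written 5′ to 3′ on the strand of the gene, with the repeat in capitals.
Rarb, chr14:16575477-16575576, minus strand: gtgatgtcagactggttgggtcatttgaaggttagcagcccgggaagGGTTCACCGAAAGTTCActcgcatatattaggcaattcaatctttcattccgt
Cyp26a1, chr19:37697708-37697807, plus strand: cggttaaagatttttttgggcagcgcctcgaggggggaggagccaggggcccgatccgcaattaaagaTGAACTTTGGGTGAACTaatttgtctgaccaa
In Rarb the repeat lies 53 to 37 bases before the start. In Cyp26a1 it lies 32 to 16 bases before the start and is on the opposite strand, where it reads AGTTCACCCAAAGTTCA.

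The values are log2 signals summarised with RMA. Array medians lay between 7.03 and 7.12, and arrays correlated with the others of their group at 0.9882 to 0.9965. Of the 24 arrays, 6 correlated best with another group: control distal maxilla 1 and 2 and mutant proximal maxilla 1 and 2 with mutant distal maxilla, and the mutant maxilla arrays numbered 3, distal and proximal, with the mutant mandible of the same end. Tgfbr1 averaged 12.41 in mutants and 12.15 in controls, and whether its probes lie in the deleted part is not given, so its level does not check the genotype. The 3′ minus 5′ signal of Actb was 0.07 to 0.14 in mutants and 0.07 to 0.15 in controls. Signal of both Xist and Y-linked genes (log2 signal above 8) was present on 8 of 12 mutant arrays and 0 of 12 control arrays. In each genotype the 3 replicate numbers had the same pattern of these markers in all 4 regions. Nothing says whether an array is 1 embryo or a pool, or whether the regions share embryos, so the p-values measure the spread between these arrays. With a sex score as covariate 0 calls of the 10 genes were lost. The labels call every compartment bone. Of 5 measured bone genes, the osteoblast genes Sp7 and Ibsp, and Alpl, averaged above the filter level in all 8 groups. Dmp1, a gene of later bone cells, averaged under it in the mutant distal mandible and mutant proximal maxilla. Phex averaged under it in the mutant distal mandible. Hand2, a factor of mandibular identity, averaged 13.04 and 11.14 in the mutant distal and proximal mandible and 12.46 and 9.68 in those of controls, against 5.52 to 7.04 in the 4 maxilla groups. Over the 4 regions 15.3% of all genes were called lower in mutants. Among marker lists of tissues in the jaw it was 7 of 8 cartilage, 5 of 5 bone and 5 of 5 tendon genes.

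**Figure D1:**
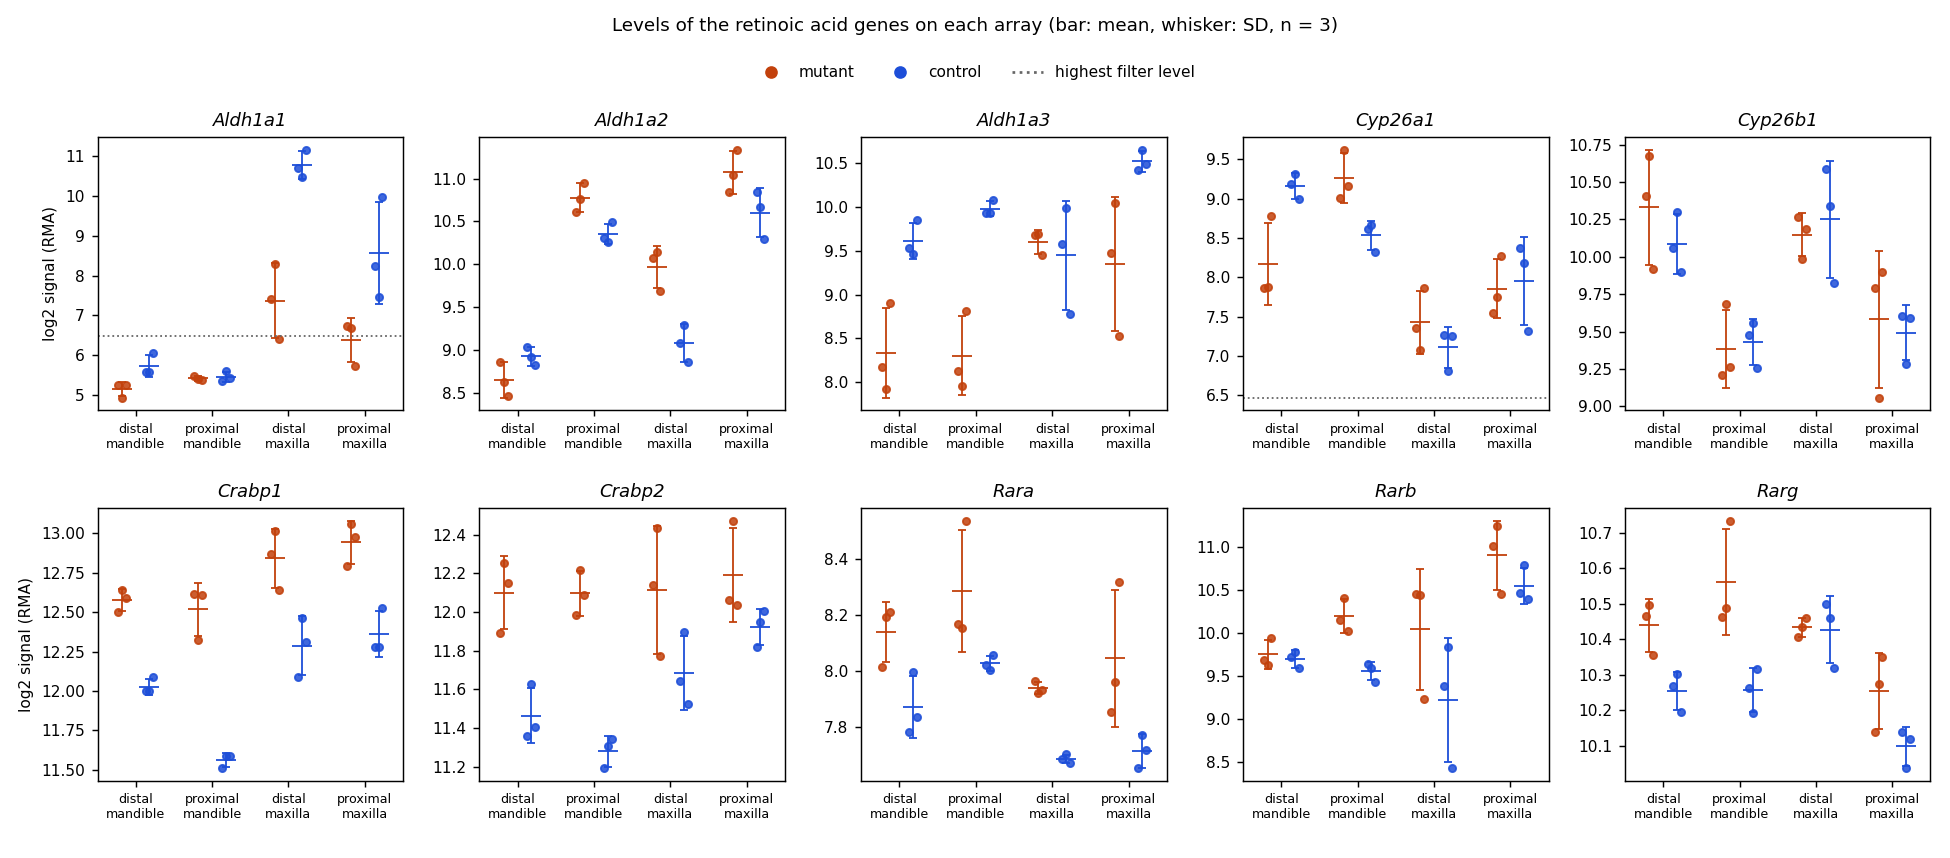
Log2 RMA signal (vertical axis) of the 10 genes on each of the 24 arrays by region (horizontal axis), with bars for the mean and whiskers for the SD of 3 arrays, mutants in orange to the left of controls in blue; the vertical scale differs between genes. Crabp1 and Rara lie higher on every mutant array than on every control array of the same region. Aldh1a1 lies below the dotted line of the filter level, at most 6.47, on all mandible arrays.

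Averaged over the 4 regions, binding protein and receptor genes were higher in mutants and 2 of the 3 synthesis genes were lower. With each region given equal weight, 8 of the 10 genes were called, 6 higher and 2 lower, where 40.6% of all genes tested were called (25.2% higher and 15.3% lower). Called means an adjusted p under 0.05 in limma, with Benjamini-Hochberg adjustment over the 13942 genes. The median difference of the 10 genes was 0.22, against 0.022 for all genes tested. Crabp1, Crabp2, Rara, Rarb and Rarg had positive differences in 4 of 4 regions, and the share of all genes with the same sign throughout was not counted. Aldh1a1 had negative ones in 4 of 4, but it was under the filter level on 12 of 12 mandible arrays. Its signs in the mandible therefore say little. Aldh1a2 was positive in 3 of 4 regions and Aldh1a3 negative in 3 of 4, while Cyp26a1 and Cyp26b1 were each positive in 2 and negative in 2.

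Within single regions fewer genes passed. The distal mandible had 4 called, 2 higher and 2 lower, where 16% of all genes were called (8.02% higher and 7.98% lower). The proximal mandible had 4, 3 higher and 1 lower, where 19.9% were called (9.56% higher and 10.4% lower). The distal maxilla had 3 called, 2 higher and 1 lower, beside 2.96% of all genes (1.84% higher and 1.12% lower). The proximal maxilla had 3, 1 higher and 2 lower, beside 10.5% (5.75% higher and 4.79% lower). Crabp1 alone of the 10 was called in 4 of 4 regions, Aldh1a3 was called in 3, and Cyp26b1, Rara and Rarb were called in 0.

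**Figure D2:**
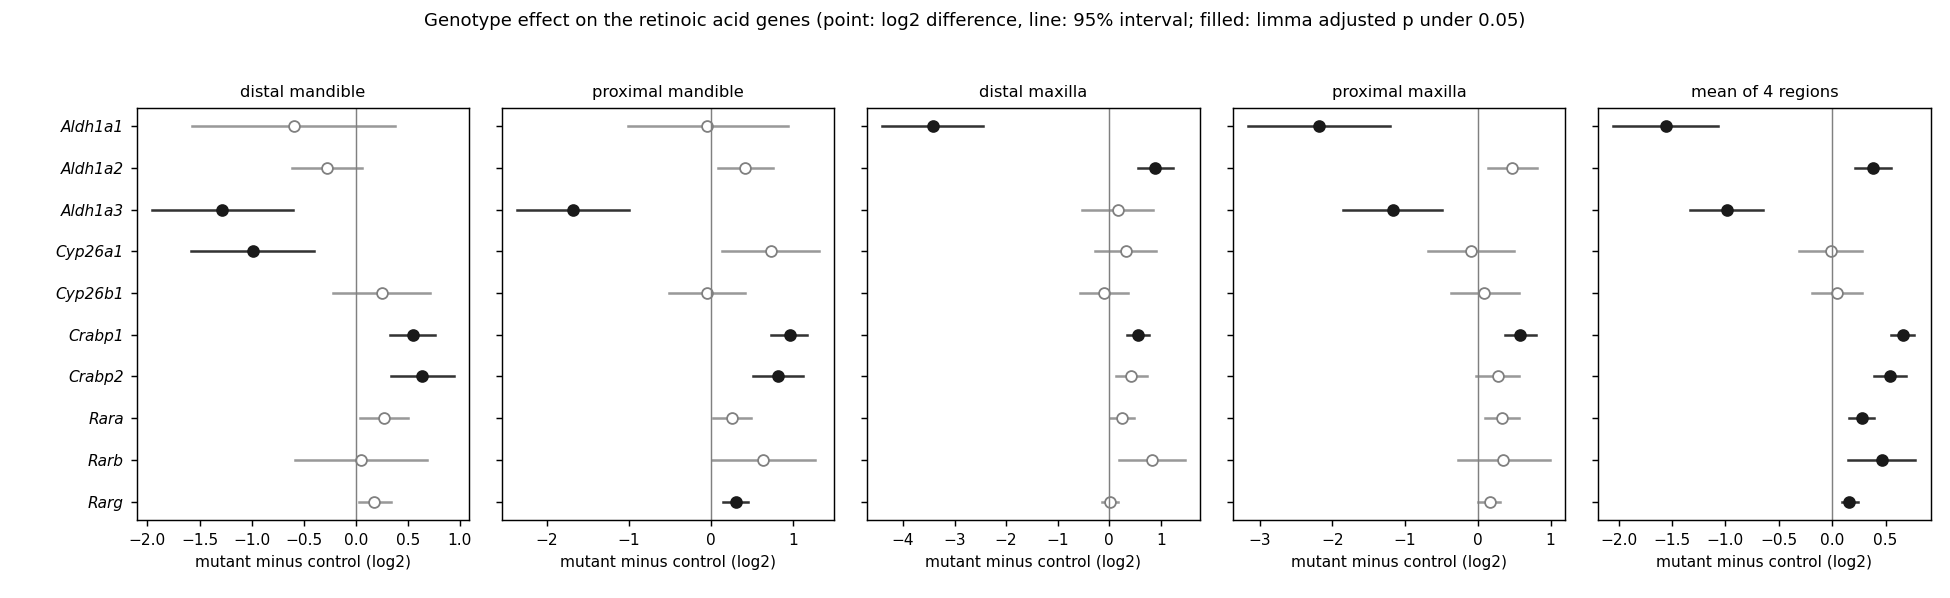
Log2 difference, mutant minus control (horizontal axis), of each of the 10 genes in the 4 regions and over their mean, with 95% intervals and filled points for a limma adjusted p under 0.05; the horizontal scale differs between panels. Aldh1a1 is lowest in the 2 parts of the maxilla, at -3.42 and -2.18, Aldh1a3 is lowest in the proximal mandible at -1.68, and Crabp1 is filled in every panel.

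Among the synthesis genes, Aldh1a1, a retinaldehyde dehydrogenase known in the embryo from the dorsal retina among other sites, was a maxillary gene. In the distal maxilla it read 7.40, 8.28 and 6.41 on the mutant arrays, against 10.72, 10.48 and 11.17 on the control arrays. Every mutant array was lower than every control array, and Aldh1a1 fell by 3.42 ± 0.47 (SE) on the log2 scale, 10.7-fold (limma adjusted p = 0.00148). Mutant array 3, at 6.41, was under the highest filter level of 6.47. In the 6 fits that left out an array Aldh1a1 stayed called, at -3.88 to -2.94. In the proximal maxilla it read 6.72, 6.68 and 5.73 in mutants, against 8.24, 7.46 and 9.98 in controls. The groups did not overlap there either, although the control arrays spanned more than 2 log2 units. The difference was -2.18 ± 0.47 (adjusted p = 0.00599), and with the mutant array 3, which lay under the filter level, set to that level, Aldh1a1 was at least 3.83-fold lower in mutants. Without control array 3, the highest, the difference was -1.47 (0.0328) and that limit 2.34-fold. This call was lost when only the arrays of that region were fitted (adjusted p = 0.129).

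In the mandible Aldh1a1 was under the filter level on 12 of 12 arrays, at 4.93 to 6.05, so a fall could hardly be measured there. RMA values carry no detection call, and the filter level, which ran from 6.33 to 6.47 over the arrays, stands in for background. The differences were -0.59 ± 0.47 in the distal mandible and -0.04 ± 0.47 in the proximal mandible (adjusted p = 0.437 and 0.968). In the bulk tissue measured here, fewer cells that express a gene and less RNA per cell cannot be told apart.

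Some genes of the nasal respiratory epithelium were lower in the mutant maxilla, as Aldh1a1 was. Of the 6 tested from a list of 8, 3 were called lower in the mutant distal maxilla, beside 1.12% of all genes. These were Bpifa1, Foxj1 and Deup1, which are described here because they were called, and the other tested genes were not called there. In the mutant proximal maxilla 3 were called lower, beside 4.79%. In the mandible 0 were called, beside 16% at the distal and 19.9% at the proximal end. Aldh1a1 was 2.23 higher at the distal than the proximal end of the control maxilla. There 0 of the 6 nasal genes were called, beside 10.9% of all genes, with a median difference of 0.5. Bpifa1, a secreted protein of the airway surface, fell by 4.08 ± 0.58 in the distal maxilla (limma adjusted p = 0.00148), and Foxj1, the transcription factor of motile cilia, fell by 2.30 ± 0.41 (0.00674). Deup1, which amplifies centrioles in multiciliated cells, was under the filter level on all 6 mutant maxilla arrays. Against that level it was at least 6.09-fold lower in the mutant distal maxilla (0.00189). It was at least 4.07-fold lower in the mutant proximal maxilla, or 2.33-fold without control proximal maxilla array 3. Deup1 was above the filter level on control maxilla arrays only, so it entered the genes tested through the groups where it was high. Its call is among the 3 of the distal maxilla and gives no support of its own. In the proximal maxilla the differences of Bpifa1 and Foxj1 were -3.11 and -2.06, and Foxj1 was under the filter level on mutant array 3 of both parts. The summed level of the list (log2 of the sum of linear signals) was 9.72 to 11.48 in the mutant distal maxilla, against 12.70 to 13.46 in the control distal maxilla, and 9.39 to 11.13 in the mutant proximal maxilla, against 11.69 to 13.52 in the control proximal maxilla. It was 8.73 to 9.04 in mutant mandibles and 8.69 to 8.83 in control mandibles, where Bpifa1, Foxj1, Deup1, Sult1c1 and Bpifb1 had means under the filter level. The mutant arrays numbered 3 had the lowest sum and the lowest Aldh1a1 in both parts of the maxilla. In the control proximal maxilla, array 3 had the highest sum and the highest Aldh1a1 and array 2 the lowest of both. The control distal maxilla ran the other way, with the lowest sum (12.70) and the highest Aldh1a1 (11.17) on array 3 and the highest sum (13.46) and the lowest Aldh1a1 (10.48) on array 2. Of 6 olfactory genes 0 were called in any region. Of 7 measured lens and retina genes, Cryaa, Cryba1, Crygs, Rax and Tyrp1 averaged under the filter level in all 8 groups. Crybb3 and Mitf averaged above it in all 8 groups. The part of nasal epithelium in the Aldh1a1 result was not tested.

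**Figure D3:**
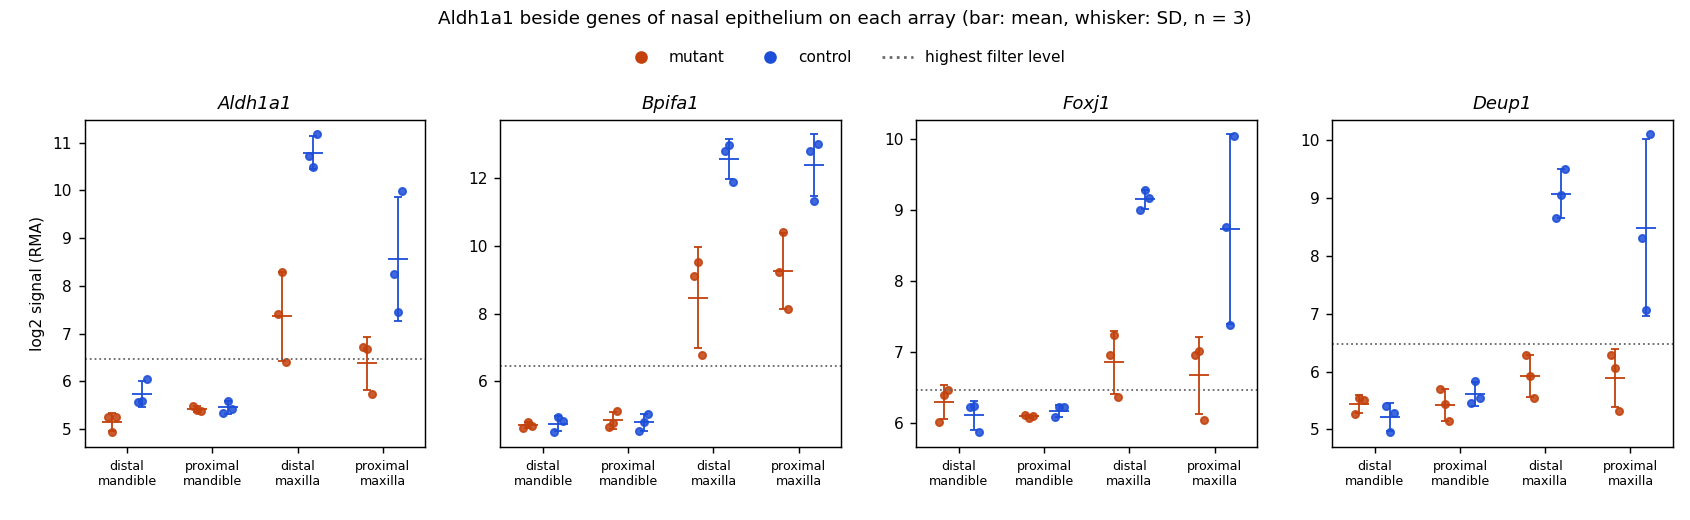
Log2 RMA signal (vertical axis) of Aldh1a1 and of 3 genes of nasal respiratory epithelium on each array by region (horizontal axis), with mean and SD of 3 arrays, mutants left of controls; the vertical scale differs between genes. The 3 nasal genes are those called lower in the distal maxilla, of 6 tested. All 4 genes are lower on every mutant maxilla array than on every control array of the same part. Of all genes tested, 19.9% in the distal and 28.8% in the proximal maxilla were without overlap in either direction. In the mandible all 4 are near or under the dotted filter level.

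Aldh1a2, the enzyme that supplies most retinoic acid in the trunk and in much mesenchyme of the early embryo, went the other way in the maxilla. In the distal maxilla it read 10.07, 10.14 and 9.69 in mutants, against 9.08, 9.29 and 8.85 in controls. The groups were apart, and Aldh1a2 rose by 0.89 ± 0.16, 1.86-fold (limma adjusted p = 0.00674). Without mutant array 1 the difference was 0.84 and the adjusted p 0.055, and with only the arrays of that region it was 0.134. In the proximal maxilla the values were 10.85, 11.04 and 11.34 in mutants, against 10.84, 10.67 and 10.29 in controls. The difference of 0.47 was not called (adjusted p = 0.0641), and was 0.59 and called without control array 1 (0.0462) or mutant array 1 (0.041). In the proximal mandible the mutant arrays read 10.62, 10.76 and 10.95, against 10.30, 10.26 and 10.49 in controls, a difference of 0.42 that was not called (0.069). In the distal mandible the mutant arrays read 8.86, 8.62 and 8.46, against 9.04, 8.92 and 8.82 in controls, with a difference of -0.28 (0.264). Aldh1a2 rose by 0.38 ± 0.08 over the 4 regions (adjusted p = 0.000906).

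Aldh1a3, the third of these enzymes and in the head one of nasal and eye tissue, fell in the mandible. In the proximal mandible it read 8.13, 7.96 and 8.81 in mutants, against 9.94, 9.93 and 10.08 in controls. The lowest control array was more than 1 log2 unit above the highest mutant array, and Aldh1a3 fell by 1.68 ± 0.33, 3.21-fold (limma adjusted p = 0.00109). In the distal mandible it read 8.17, 7.93 and 8.91 in mutants, against 9.53, 9.46 and 9.85 in controls. It fell by 1.28 ± 0.33 there, 2.42-fold (0.011), with -1.16 (0.0554) without control array 3 and -1.07 (0.0705) without mutant array 2. Its other 2 probe sets had smaller distal mandible differences of -0.62 and -0.76, neither of them called (0.0963 and 0.0852), and were called for the proximal mandible at -1.29 and -0.99 (0.000916 and 0.02).

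In the maxilla the values of Aldh1a3 spread more. The proximal maxilla read 9.48, 10.04 and 8.53 in mutants, against 10.42, 10.66 and 10.50 in controls, and the difference of -1.17 ± 0.33 was called (adjusted p = 0.0266). It was -0.77 (0.181) without mutant array 3, which was the lowest, and the call was also lost without control array 1, 2 or 3 (-1.23, -1.11 and -1.19, adjusted p 0.0568 to 0.0725) and with only the arrays of that region (0.135). The distal maxilla read 9.68, 9.69 and 9.45 in mutants, against 9.58, 9.99 and 8.78 in controls, and these overlapped, with a difference of 0.16 (0.803). Over the 4 regions Aldh1a3 fell by 0.99 ± 0.16 (adjusted p = 8.68e-05), and its other probe sets by 0.66 and 0.57 (0.000285 and 0.00405).

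Of the breakdown genes, Cyp26a1, which oxidises retinoic acid and whose promoter repeat is printed above, was lower in the mutant distal mandible. It read 7.86, 7.88 and 8.77 in mutants, against 9.19, 9.31 and 8.99 in controls. The 2 lowest mutant arrays were more than 1 log2 unit below the controls and the third was closer, and Cyp26a1 fell by 0.99 ± 0.28 (limma adjusted p = 0.0207). That call was lost without mutant array 1 or 2 (-0.84 and -0.85, adjusted p = 0.0915 and 0.103) and without control array 1 or 2 (-0.98 and -0.92, 0.0597 and 0.0758). In the proximal mandible it read 9.0, 9.62 and 9.16 in mutants, against 8.61, 8.66 and 8.32 in controls. All 3 mutant arrays were above the controls, and the difference of 0.73 was not called (0.078). In the maxilla the groups overlapped, with 7.35, 7.07 and 7.86 in the mutant distal part, against 7.27, 6.81 and 7.25 in controls, and 7.54, 7.75 and 8.27 in the mutant proximal part, against 8.37, 8.18 and 7.32 in controls.

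Cyp26b1, the other enzyme that removes retinoic acid and one needed for normal skeletal development, gave no call in any region. Its differences were 0.25, -0.05, -0.11 and 0.09 in the distal mandible, proximal mandible, distal maxilla and proximal maxilla, each with an SE of 0.22. The 12 mutant arrays ran from 9.06 to 10.67 with a median of 9.91, and the 12 control arrays from 9.26 to 10.59 with a median of 9.72. Over the 4 regions the difference was 0.05, with a 95% interval from -0.19 to 0.28 (limma adjusted p = 0.775).

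Both binding protein genes were higher in mutants over the 4 regions. Crabp1, a cytoplasmic retinoic acid binding protein long used as a marker of migrating neural crest, read 12.50, 12.64 and 12.59 in the mutant distal mandible, against 12.00, 12.00 and 12.09 in controls. The proximal mandible read 12.62, 12.33 and 12.61 in mutants, against 11.51, 11.59 and 11.59 in controls. The distal maxilla had 12.87, 13.01 and 12.64 in mutants, against 12.09, 12.46 and 12.31 in controls. Here and in the proximal maxilla, with 12.79, 13.06 and 12.98 in mutants against 12.28, 12.28 and 12.53 in controls, no mutant array reached down to a control array. Crabp1 rose by 0.55, 0.96, 0.55 and 0.58 in the distal mandible, proximal mandible, distal maxilla and proximal maxilla, each ± 0.10 (limma adjusted p = 0.00152, 8.41e-06, 0.00869 and 0.00169). The distal maxilla call was lost without mutant array 1 (0.54, 0.0563) and with only the arrays of that region (0.204). The mean rise of Crabp1 over the 4 regions was 0.66 ± 0.05, 1.58-fold (3.69e-08).

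Crabp2, the relative that delivers retinoic acid to the receptors, rose in the mandible. The proximal mandible read 11.99, 12.22 and 12.09 in mutants, against 11.19, 11.31 and 11.35 in controls, a rise of 0.82 ± 0.14 (limma adjusted p = 0.000482). In the distal mandible it read 11.89, 12.26 and 12.15 in mutants, against 11.36, 11.63 and 11.40 in controls, a rise of 0.64 ± 0.14 (0.00516). Mutant and control arrays were apart in both parts of the mandible and, narrowly, in the proximal maxilla. There mutants read 12.06, 12.47 and 12.04, against 11.82, 11.95 and 12.00 in controls. They overlapped in the distal maxilla, where mutants read 12.14, 12.43 and 11.77, against 11.64, 11.90 and 11.52 in controls. The maxillary differences of 0.43 in the distal part and 0.27 in the proximal part were not called (0.106 and 0.244). Without mutant array 3 the distal maxilla difference was 0.60 and was called (0.0197). The mean rise of Crabp2 over the 4 regions was 0.54 ± 0.07 (1.01e-05).

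All 3 receptor genes were higher in mutants over the 4 regions, and 1 of them was called in a single region. Rara, which encodes the most widely expressed of the 3 receptors, had differences of 0.27, 0.26, 0.25 and 0.33 in the distal mandible, proximal mandible, distal maxilla and proximal maxilla, none of them called (limma adjusted p 0.0601 to 0.195). Its 12 mutant arrays ran from 7.86 to 8.54 and its 12 control arrays from 7.65 to 8.06. Within each of the 4 regions every mutant array was above every control array, where 19.9% to 42.4% of all genes were likewise without overlap. In the distal maxilla Rara read 7.97, 7.92 and 7.93 in mutants, against 7.69, 7.70 and 7.67 in controls. The proximal maxilla difference was 0.43 and was called without mutant array 1 (0.0287). Taken over the 4 regions Rara rose by 0.28 ± 0.05 (0.000517), a fold of 1.21.

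Rarb, a receptor gene that retinoic acid itself switches on and whose promoter repeat is printed above, had its largest difference in the distal maxilla. It read 10.45, 10.44 and 9.23 in mutants, against 9.38, 9.84 and 8.42 in controls, and the array numbered 3 was the lowest of both groups. The difference of 0.82 ± 0.30 was not called (limma adjusted p = 0.136), and without mutant array 3 it was 1.23 and was called (0.0174), as it was without control array 2 (1.13, 0.0397). Rarb in the proximal mandible read 10.14, 10.41 and 10.02 in mutants, against 9.64, 9.58 and 9.43 in controls, a difference of 0.64 (0.154) with no overlap. The distal mandible and proximal maxilla differences were 0.05 and 0.35 (0.945 and 0.495). Averaged over the 4 regions Rarb rose by 0.47 ± 0.15 (0.0189). With the replicate number within each genotype as a random block the adjusted p was 0.0813, so this call depends on how arrays are grouped into blocks.

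Rarg, the receptor gene of cartilage and skin, was called in the proximal mandible only, with 10.46, 10.49 and 10.73 in mutants, against 10.26, 10.19 and 10.31 in controls. It rose by 0.31 ± 0.07 (limma adjusted p = 0.00555), and with only the arrays of that region the adjusted p was 0.0672. The differences were 0.18 in the distal mandible, 0.01 in the distal maxilla and 0.16 in the proximal maxilla. Averaged over the 4 regions it rose by 0.16 ± 0.04 (0.00151), and by 0.35 (0.000596) on its other probe set.

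Other tissue marker lists also differed between genotypes over the 4 regions, where 40.6% of all genes were called (25.2% higher and 15.3% lower). The summed cartilage level was 11.73 to 14.48 on mutant arrays and 13.10 to 15.66 on control arrays, and that of bone, from 5 measured genes of 8, 10.46 to 14.12 on mutant arrays and 12.10 to 15.08 on control arrays. Tendon genes summed to 10.08 to 10.99 in mutants and 10.72 to 12.74 in controls. Of 5 leukocyte genes 4 were called lower over the 4 regions, with sums of 10.47 to 12.37 in mutants and 11.61 to 12.49 in controls. Of 8 oral and skin epithelium genes 4 were called higher, with sums of 14.13 to 15.35 in mutants and 13.05 to 15.57 in controls. Of 8 muscle genes 4 were called lower, and 5 of 8 in the distal mandible, where 7.98% of all genes were called lower. Muscle genes summed to 10.54 to 15.15 in mutants and 11.31 to 15.64 in controls. All 3 tested genes of glia and Schwann precursors were called higher (median difference 0.25), with sums of 10.48 to 11.24 in mutants and 10.30 to 11.06 in controls. Of 6 genes of maxilla and palate mesenchyme 3 were called higher and 1 lower (median 0.75), with sums of 12.02 to 13.66 in mutants and 11.50 to 13.08 in controls. Neurons had 1 of 6 genes higher, mandible identity 1 of 5 higher and endothelium 1 of 5 lower. The part of these tissues in the retinoic acid gene results was not tested.

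In control jaws the 10 genes differed by place as well. Between the distal ends, mandible minus maxilla, 2 were called, 1 higher and 1 lower, where 17.8% of all genes were called (8.37% higher and 9.46% lower). Between the proximal ends 5 were called, 1 higher and 4 lower, where 26.6% were (11.4% higher and 15.2% lower). Along the control mandible, distal minus proximal, 2 were called, 1 in each direction, beside 5.45% of all genes (2.91% higher and 2.54% lower). Along the control maxilla 6 were called, 3 in each direction, beside 10.9% (4.9% higher and 5.99% lower).

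**Figure D4:**
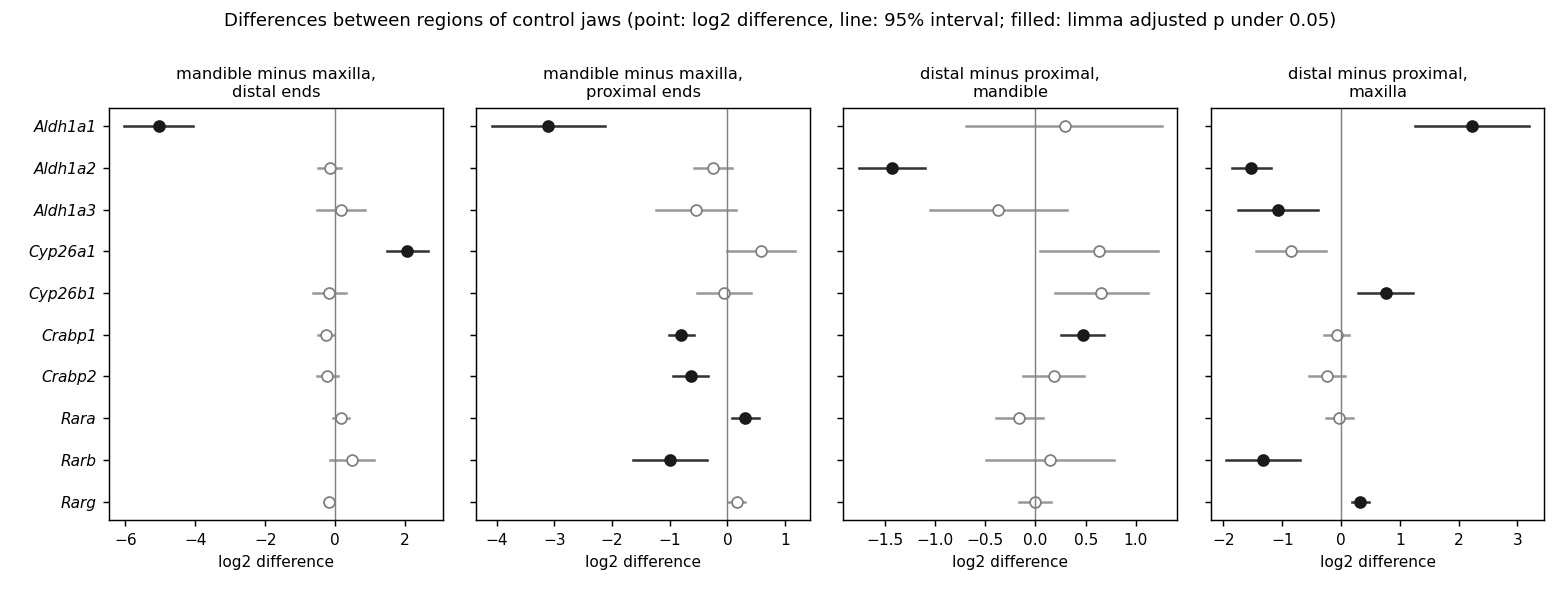
Log2 differences (horizontal axis) of the 10 genes between regions of control jaws, 3 arrays in each region, with 95% intervals and filled points for a limma adjusted p under 0.05; the horizontal scale differs between panels. Aldh1a1 is far lower in the mandible, Cyp26a1 is higher in the distal mandible than the distal maxilla, and Aldh1a2 is lower at the distal end of both jaws.

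Synthesis genes marked different parts of the control jaw. Aldh1a1 averaged 5.74 in the distal mandible and 10.79 in the distal maxilla, a difference of -5.05 ± 0.47 (limma adjusted p = 7.09e-07), and against the filter level it was at least 20-fold lower in the mandible. Between the proximal ends the difference was -3.11 (7.44e-05), at least 4.27-fold, and -2.40 (0.000287), at least 2.61-fold, without control proximal maxilla array 3. Aldh1a1 also rose by 2.23 ± 0.47 at the distal over the proximal end of the maxilla (0.0038), which was not called with only those 6 arrays (0.0565) and was 2.94 (6.16e-05) without control proximal maxilla array 3. Aldh1a2 was a gene of the proximal ends. It averaged 8.92 in the distal mandible against 10.35 in the proximal mandible, and 9.08 in the distal maxilla against 10.60 in the proximal maxilla. It fell by 1.43 and 1.53 at the distal ends, each ± 0.16 (3.85e-05 and 3.78e-06). Aldh1a3 was lower at the distal end of the maxilla (-1.08 ± 0.33, 0.038), a call that was lost in 5 of 6 fits that left out an array, all except the one without control distal maxilla array 2, with differences down to -0.74 (0.259).

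The breakdown genes had their own pattern in controls. Cyp26a1 averaged 9.16 in the distal mandible and 7.11 in the distal maxilla, where it was at its highest and lowest among control regions, a difference of 2.06 ± 0.28 (limma adjusted p = 5.05e-05). Between the proximal ends the difference was 0.58 (0.144). Along the maxilla it was -0.85 (0.0612), and -1.16 (0.00999) without control proximal maxilla array 3. Cyp26b1 was higher distally, with 0.65 in the mandible, which was not called (0.103), and 0.76 ± 0.22 in the maxilla (0.0326). That last call was lost in 5 of 6 fits that left out an array, all except the one without control distal maxilla array 3, with differences of 0.59 to 0.82 in those 5 (0.0503 to 0.125).

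Binding protein and receptor genes also differed by place. Crabp1 was lower in the proximal mandible than the proximal maxilla (-0.80 ± 0.10, limma adjusted p = 1.94e-05), as was Crabp2 (-0.64 ± 0.14, 0.00234). Between the distal ends Crabp1 had a difference of -0.26 (0.0947), and of -0.36 (0.031) without control distal maxilla array 1. Crabp1 was also 0.47 higher at the distal end of the mandible (0.00964). Between the proximal ends Rarb averaged 9.55 in the mandible and 10.55 in the maxilla (-0.99 ± 0.30, 0.0195), which was not called without control proximal mandible array 3 (-0.93, 0.0647) or control proximal maxilla array 2 (-0.88, 0.0709). It was also lower at the distal end of the maxilla (-1.33, 0.00693), and -0.94 (0.0654) without control distal maxilla array 3. Rara was 0.31 higher in the proximal mandible than the proximal maxilla (0.0411), and the call was lost in 6 of 6 fits that left out an array (0.28 to 0.34, 0.055 to 0.129). Rarg was 0.33 higher at the distal end of the maxilla (0.00596), and its other probe set gave 0.38 and was not called (0.0913). With only the 6 control maxilla arrays, the calls of Aldh1a3, Cyp26b1, Rarb and Rarg along the maxilla were lost (0.05 to 0.0644).

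The test of the difference between regional genotype effects called 2 of the 10 genes at the distal ends, 1 higher and 1 lower in mandible minus maxilla, where 3.31% of all genes were called (1.61% higher and 1.69% lower). For Aldh1a1 the genotype effect was -0.59 in the distal mandible and -3.42 in the distal maxilla, a difference of 2.83 ± 0.66 (limma adjusted p = 0.0234). Since Aldh1a1 was under the filter level throughout the mandible, the mandible effect had little room. The call was lost without control distal mandible array 1 or 2 (2.74 and 2.75, 0.055 and 0.0537), control distal maxilla array 3 (2.64, 0.0766), mutant distal mandible array 3 (2.77, 0.0535) or mutant distal maxilla array 1 (2.85, 0.0507). For Aldh1a2 the effect was -0.28 in the distal mandible and 0.89 in the distal maxilla, a difference of -1.17 ± 0.23 (0.00668), which stayed called in 12 of 12 fits that left out an array. Aldh1a3 and Cyp26a1 were not called at -1.44 ± 0.46 (0.0989) and -1.31 ± 0.40 (0.0808). They were called at -1.71 (0.0441) without control distal maxilla array 2 for Aldh1a3 and at -1.61 (0.0332) without mutant distal mandible array 3 for Cyp26a1. With the replicate number within each genotype as a random block Cyp26a1 was called as well (-1.31 ± 0.34, 0.0247).

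The other differences of genotype effects gave 0 calls among the 10 genes in limma. At the same adjusted threshold 0.975% of all genes were called between the proximal ends, mandible minus maxilla. The share was 0.108% between the ends of the mandible and 0.201% between the ends of the maxilla. For Cyp26a1 the genotype effect differed by -1.72 ± 0.40 between the distal and the proximal mandible (limma adjusted p = 0.122). With the replicate number within each genotype as a random block it was called (-1.72 ± 0.34, 0.028), and without mutant distal mandible array 3 it was -2.02 (0.0434). For Aldh1a1 between the proximal ends the difference was 2.15 ± 0.66 (0.137), and 2.70 (0.0356) without control proximal maxilla array 2.

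Ordered by mean level over the 8 groups, the genes fell into different sequences. Aldh1a1 ran from control distal maxilla (10.79) through control proximal maxilla (8.56), mutant distal maxilla (7.37) and mutant proximal maxilla (6.38) to the mandible groups at 5.74 or less, and among the first 5 groups only the first was apart from its neighbour on every array. Aldh1a2 ran from mutant proximal maxilla (11.07) through mutant proximal mandible, control proximal maxilla and control proximal mandible (10.35), whose arrays overlapped from each to the next. Mutant distal maxilla (9.97) followed, apart from both neighbours, and then the 3 remaining distal groups, lowest in mutant distal mandible (8.65). Aldh1a3 was highest in control proximal maxilla (10.53) and lowest in mutant proximal mandible (8.30), next to mutant distal mandible (8.34), which it overlapped. Cyp26a1 was highest in mutant proximal mandible (9.26) and control distal mandible (9.16), which overlapped, and lowest in control distal maxilla (7.11).

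For Cyp26b1 the 4 distal groups, at 10.09 to 10.33, stood above the 4 proximal groups, at 9.38 to 9.58, and within each of these sets neighbours overlapped. For Crabp1 the 4 mutant groups (12.52 to 12.94) stood above the 4 control groups (11.56 to 12.36), as they did for Crabp2 (12.10 to 12.19 and 11.28 to 11.92), although the lowest mutant group and the highest control group overlapped on single arrays. Rara ran from mutant proximal mandible (8.29) to control distal maxilla (7.69), and Rarb from mutant proximal maxilla (10.90) to control distal maxilla (9.21), with all of its neighbours overlapping. Rarg had the smallest range of group means, 0.46, with mutant proximal mandible highest (10.56) and control proximal maxilla lowest (10.10).

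The 3 genes whose pattern was most like each member over the 24 arrays, by Pearson correlation of log2 signal, are given as a description, since the arrays fall into 8 groups and share the same RNA labelling and normalization. For Aldh1a1 these were Ccno (0.96), Dynlrb2 (0.96) and Capsl (0.95). For Aldh1a2 they were Slitrk5 (0.94), Prkg1 (0.90) and Nr2f2 (0.90), and for Aldh1a3 Selenom (0.94), Tgoln1 (0.92) and Cadm1 (0.91). Cyp26a1 lay nearest to Cdkn1c (0.89), Ttyh2 (0.86) and Gpr50 (0.86), and Cyp26b1 to Cacna2d3, Tfb2m and Glce (0.86 each). Crabp1 lay nearest to Dlg3 (0.94), Casp6 (0.93) and Kdm3b (0.91), and Crabp2 to Tmem151b (0.96), Mad2l2 (0.95) and Unc119 (0.94). Rara lay nearest to Ephb4 (0.92), Vac14 (0.92) and Lzts2 (0.91), Rarb to St6gal1 (0.90), Foxp2 (0.89) and Plat (0.88), and Rarg, with the lowest values, to Sh3bp4 (0.82), Pdcd7 (0.80) and Eif3e (0.79).

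Other genes of the pathway were counted over the 4 regions, beside the 40.6% of all genes called. Of 3 tested genes of retinol uptake and transport, 1 was higher and 1 lower. Rbp4, the carrier of retinol in blood, fell by 0.68 ± 0.11 (limma adjusted p = 7.92e-05), and its differences were -1.35 in the distal and -1.55 in the proximal mandible, against 0.15 and 0.01 in the distal and proximal maxilla. The genotype effect on Rbp4 differed between mandible and maxilla by -1.50 ± 0.31 at the distal and -1.56 ± 0.31 at the proximal ends (0.0123 and 0.0248). Stra6, the membrane receptor that takes up retinol from Rbp4, rose by 0.35 ± 0.08 (0.0027), with 0.83 (0.00145) in the proximal mandible. Ttr, which carries Rbp4, had a difference of -0.28 (0.241).

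Of 9 tested genes that interconvert retinol and retinaldehyde, 4 were higher and 1 was lower. Adh5, Rdh14 and Rdh13, all dehydrogenases, rose by 0.14, 0.21 and 0.19 (limma adjusted p = 2.08e-05, 2.43e-05 and 4.83e-05). Dhrs3, which returns retinaldehyde to retinol and is known to be induced by retinoic acid, fell by 0.21 ± 0.07 (0.0168). Its difference in the distal mandible was -0.56 (0.0064). Of the alternative carrier route, Fabp5, which can pass retinoic acid to another nuclear receptor, rose by 0.14 (0.0209), and that receptor gene, Ppard, had a difference of 0.05 (0.555). Of the 3 RXR partners 2 rose: Rxra by 0.25 ± 0.05 (0.000953) and Rxrb by 0.12 (0.0288). Rxrg had a difference of 0.09 (0.606). Of 7 receptor cofactors 4 rose, namely Ncoa3 by 0.17, Med1 by 0.12, Ep300 by 0.15 and Crebbp by 0.13 (0.0129 to 0.0288), and none was called in a single region.

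Of 8 tested genes known to respond to retinoic acid, 4 were higher and 2 lower over the 4 regions, with a median difference of 0.29. Meis2, a homeobox factor of cranial neural crest, rose by 0.67 ± 0.08 (limma adjusted p = 1.94e-06), with 1.07 in the proximal and 0.68 in the distal mandible (7.64e-05 and 0.00556). The nuclear receptor genes Nr2f1 and Nr2f2 rose by 0.72 ± 0.17 and 0.44 ± 0.10 (0.00222 and 0.00181). Tgm2, a transglutaminase that cross-links proteins, moved the other way and fell by 1.15 ± 0.18 (5.14e-05), with -1.49 in the distal mandible and -1.62 in the proximal maxilla (0.00763 and 0.00729). In the proximal mandible 5 of the 8 were higher and 1 lower, beside 19.9% of all genes called. In the distal mandible and in the proximal maxilla 1 was higher and 1 lower, beside 16% and 10.5%. In the distal maxilla 0 of 8 were called, beside 2.96%. The median differences were 0.67 in the proximal and -0.06 in the distal mandible, and 0.29 in the proximal and 0.20 in the distal maxilla.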

How the data were processed

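Total RNA from 24 dissected jaw parts was labelled and hybridised to one-colour arrays. The deposited log2 values were made by the authors with RMA, per the submitters' processing notes, which give no version. That their scale is log2 was read from their range (3.29 to 14.86). Of 45101 probe sets, 34945 carried 1 symbol, 932 several and 9224 none or were controls; 34741 of those with 1 symbol matched RefSeq, which changed 0 names. The probe set with the highest mean stood for each gene. A gene was kept if 3 or more arrays had it above their 40th percentile. limma 3.58.1 in R 4.3.3 was fitted to all 24 arrays with 1 mean per group and a trended eBayes prior, and 13 comparisons were read from it, each adjusted by Benjamini-Hochberg over 13942 genes. The script was tested on simulated data.

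The members, pathway lists and marker lists were chosen with earlier results of these data known. All 10 members are named. Of each pathway list up to 4 genes are named, those with the largest moderated statistic in the genotype comparisons, and of likeness 3 genes per member. Arrays with the same replicate number were described as pairs where all 3 numbers had deviations from the group means that correlated above 0.1. This held for the mean over 4 regions (lowest 0.13), the ends of the control mandible (0.33) and the differences of genotype effects at the distal ends (0.18), along the mandible (0.23) and along the maxilla (0.20), and not for the other comparisons, such as the distal maxilla (0.09) and proximal maxilla (-0.17). The labels say nothing of a shared embryo. The main fit used no pairing in any comparison. Among the alternatives, the fixed block grouped arrays by replicate number over both genotypes, and the random block by replicate number within each genotype. Alternatives were another quantile normalization, array weights, no filter, a 60th percentile filter, the mean of probe sets, the replicate number as a fixed or random block, only the arrays compared, each array left out, a sex score as covariate, 2 arrays left out together, a test against a log2 change of 0.5, and other probe sets. The number of arrays limits the precision.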

Additional observations from a re-analysis of the deposited data

Results flagged for a closer look

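The test of the difference between genotype effects of the jaws at the distal ends called 2 of the 10 genes. For Aldh1a1 the genotype effect in the mandible minus that in the maxilla was 2.83 (limma adjusted p = 0.0234). The gene was under the filter level on all 12 mandible arrays, so a fall there could hardly be measured and the test cannot show that the jaws respond differently. This call was kept in 7 of 12 fits that left out an array. For Aldh1a2 it was -1.17 (limma adjusted p = 0.00668), with a difference of -0.28 in the distal mandible and 0.89 in the distal maxilla.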

How the results depend on the processing

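The 39 called results of single genes changed sign under 0 of the settings tried, and 8 stayed called under all settings run for them. Counts of called genes that moved by more than 1.5 times were as follows. With array weights 5 were called in the distal maxilla, 4 along the control mandible and 4 between the genotype effects at the distal ends. With the replicate number as a fixed block 5 were called in the distal maxilla, Crabp2 and Rarb being added (limma adjusted p = 0.0196 and 0.0426), although the numbers did not pair the arrays there. With a random replicate block (correlation 0.231) 1 was called between the genotype effects at the proximal ends, Aldh1a1, and 1 along the mandible, Cyp26a1. Over the 4 regions the random block ended the call of Rarb (0.0813) and the fixed block, which groups the arrays differently, did not. Neither block ended another call. With only the arrays compared 1 was called in each of the distal maxilla, the proximal maxilla and the ends of the control maxilla, 4 along the control mandible, and 1, Cyp26a1, between the genotype effects along the mandible. With both mutant maxilla arrays numbered 3 left out 5 were called in the distal maxilla, and Aldh1a1 there was -2.94. Against a log2 change of 0.5 the mutant counts were 0 (distal mandible), 1 (proximal mandible), 1 (distal maxilla), 0 (proximal maxilla) and 1 (mean of the 4 regions), with 1 between control proximal ends, 1 along the control mandible, 1 along the control maxilla and 0 between the genotype effects at the distal ends. With each array left out in turn the mutant counts were 2 to 4 (distal mandible), 4 to 4 (proximal mandible), 1 to 5 (distal maxilla), 2 to 5 (proximal maxilla) and 8 to 8 (mean of the 4 regions). They were 2 to 3 between control distal ends, 3 to 4 between control proximal ends, 2 to 2 along the control mandible and 4 to 5 along the control maxilla. Between genotype effects they were 1 to 3 at the distal ends, 0 to 1 at the proximal ends, 0 to 1 along the mandible and 0 to 0 along the maxilla. The cause was not tested. Signals near the filter level limit what can be read of Aldh1a1 in the mandible.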

Other observations

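Of the 31 gene symbols whose RefSeq promoter window held a direct repeat of the half-sites with 5 bases between, 8 were among the genes tested. Over the 4 regions 3 of these were called in limma, 1 higher (Rarb, 0.47) and 2 lower (Blvrb, -0.15, and Cfap45, -0.66). That is 37.5% of the 8, beside 40.6% of all genes tested. Rarb and Cyp26a1 are among the 8 through the choice of half-sites. With them left out 2 of 6 were called (33.3%), 0 higher and 2 lower. Blvrb and Cfap45 are named because so few were called, and they were chosen after their values were seen.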
